A study of Mus musculus with 7 samples.

Results

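Open chromatin was examined around 3 genes of the Krüppel-like factor family, Klf2, Klf4 and Klf5, in mouse embryonic stem cells and neural progenitors. Peaks were taken by position, in mm9 coordinates: for Klf2 chromosome 8 from 74810000 to 74870000, for Klf4 chromosome 4 from 55450000 to 55570000 and for Klf5 chromosome 14 from 99650000 to 99800000. The windows span 60, 120 and 150 kb. They held 197 of the 644207 peaks in the 7 lists used: 24 of 28907 in female stem cells, 6 of 41126 in wild-type neural progenitors, 10 of 37270 in deltaFT neural progenitors, and 43 of 139825, 37 of 125498, 38 of 129055 and 39 of 142526 in 4 lists from male stem cells.

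ATAC-seq marks accessible DNA by the places where the Tn5 transposase inserts adapters. Per the labels, the female stem cells (mESC) were the F1216 line from a 129S1 x Cast:EiJ F1 cross, grown in serum with LIF on gelatin. Both neural progenitor (NPC) lines were female, of the same cross, and grown in N2/B27 medium with FGF and EGF: the wild-type line C2 and the line sgdgb2 with the deltaFT deletion, which removes the X-linked boundary region containing the Dxz4 macrosatellite. The male stem cells (TXY) were J1 cells in which doxycycline (dox) induces Xist from its endogenous locus on their X chromosome, with an intact Xist gene or with one whose A repeat is deleted (deltaRepA). Each genotype was grown without dox or with 2 ug/mL dox for 48 hours. Each group was 1 sample, and each NPC group 1 line, so a genotype, a cell type and a line cannot be told apart and no test between groups was possible. Each female line had 2 libraries, combined by the authors into a list of peaks reproducible between them (the reproducible list), and each TXY condition had 1 merged list. Reads in the autosomal peaks of the reproducible lists numbered 6176798 in mESC, 10724324 in wild-type NPC and 10845382 in deltaFT NPC.

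Klf2, Klf4 and Klf5 encode zinc finger transcription factors that bind GC-rich and CACC-type DNA. In mouse embryonic stem cells they share many target sites with Oct4, Sox2 and Nanog and support self-renewal, and losing a single one of them is largely covered by the others. Klf4 is a target of the LIF and Stat3 pathway and one of the factors used to reprogram fibroblasts, Klf2 is a target of Oct4 and is also known for its role in blood vessels and lung, and Klf5 acts in the early blastocyst and in epithelia. All 3 genes are autosomal, whereas Xist and the deltaFT deletion lie on the X chromosome.

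The RefSeq promoters used here had no entry for Klf5. The proximal promoters of Klf2 and Klf4 are shown because factors of this family bind GC-rich DNA and act on each other's genes. Each is given as the 250 bases before the start in RefSeq, 5′ to 3′ on the gene's strand, with matches of the GC box, GGGCGG or CCGCCC on the other strand, in capitals. The GC box is the motif of the Sp and Klf family and was chosen after the sequences were seen. The positions are GRCm38.p6, another build than the peaks, chr8:72318812-72319061 on the plus strand for Klf2 and chr4:55532476-55532725 on the minus strand for Klf4.
Klf2: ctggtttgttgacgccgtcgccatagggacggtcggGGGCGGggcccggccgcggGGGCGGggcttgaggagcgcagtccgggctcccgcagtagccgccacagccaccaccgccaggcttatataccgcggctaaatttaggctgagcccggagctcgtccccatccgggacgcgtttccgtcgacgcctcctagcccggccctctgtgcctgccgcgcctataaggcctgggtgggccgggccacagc
Klf4: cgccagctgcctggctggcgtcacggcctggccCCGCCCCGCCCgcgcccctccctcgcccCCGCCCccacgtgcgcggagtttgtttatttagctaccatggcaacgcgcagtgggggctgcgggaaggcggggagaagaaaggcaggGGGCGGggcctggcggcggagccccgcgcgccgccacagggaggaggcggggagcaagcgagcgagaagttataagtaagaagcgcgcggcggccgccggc

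Both are rich in G and C: 71.2% with 29 CpG dinucleotides for Klf2 and 74% with 32 for Klf4, next to medians of 52.4% and 6 over 32851 mouse promoters of the same length. The Klf2 promoter holds 2 GC boxes and the Klf4 promoter 4, and 32.7% of all promoters hold at least 1. Of the 14 other Klf genes 11 had a promoter in the RefSeq table, and 8 of these had a GC box. Among 14 LIF pathway and pluripotency genes 11 were in the table, and 8 of them had one. The Klf core GGGNGTGG, present on either strand in 15.9% of promoters, was found in neither of these promoters. It was found in 5 of the 11 other Klf genes and 4 of the 11 network genes. Neither promoter held the STAT palindrome TTCNNNGAA (7.02% of promoters), the ESRRB core AAGGTCA (4.08%), the octamer ATGCAAAT (1.60%), the SOX core ACAATGG (3.02%) or the TCF core CTTTGAT (3.21%). The sequence of the peak windows was not searched. These are matches of letters on both strands and were not tied to binding or to a peak.

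Joining overlapping peaks of the 3 female reproducible lists gave 26 sites, lettered by position within each window: Klf2-A to Klf2-G, Klf4-A to Klf4-I and Klf5-A to Klf5-J. An annotation of the peaks' build was not used here, so no site is assigned to a promoter, exon or intron, and the place of each gene within its window was not checked. The genes are short beside their windows. RefSeq gives lengths of 2593 bp for Klf2, 5339 bp for Klf4 and 14722 bp for Klf5, and a stretch of that length, wherever it is placed, touches at most 2 of the 7 Klf2 sites, 3 of the 9 Klf4 sites and 3 of the 10 Klf5 sites. At least 5, 6 and 7 sites therefore lie outside the gene bodies. In the RefSeq order of genes Klf2 stands between Gm10282 and Eps15l1, Klf4 between Gm22150 and Gm12506 and Klf5 between Pibf1 and Gm22984, so some sites may lie closer to a neighbour.

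Each gene had a single site that was open in all 7 lists. At Klf2 it was Klf2-E (74842481 to 74843252), at Klf4 Klf4-E (55527592 to 55528154) and at Klf5 Klf5-B (99697508 to 99698616). Klf5-B and Klf2-E had the most reads of their window in mESC, 845 and 548, and so did Klf4-E with 420. Distances below are measured from these sites.

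**Figure D1:**
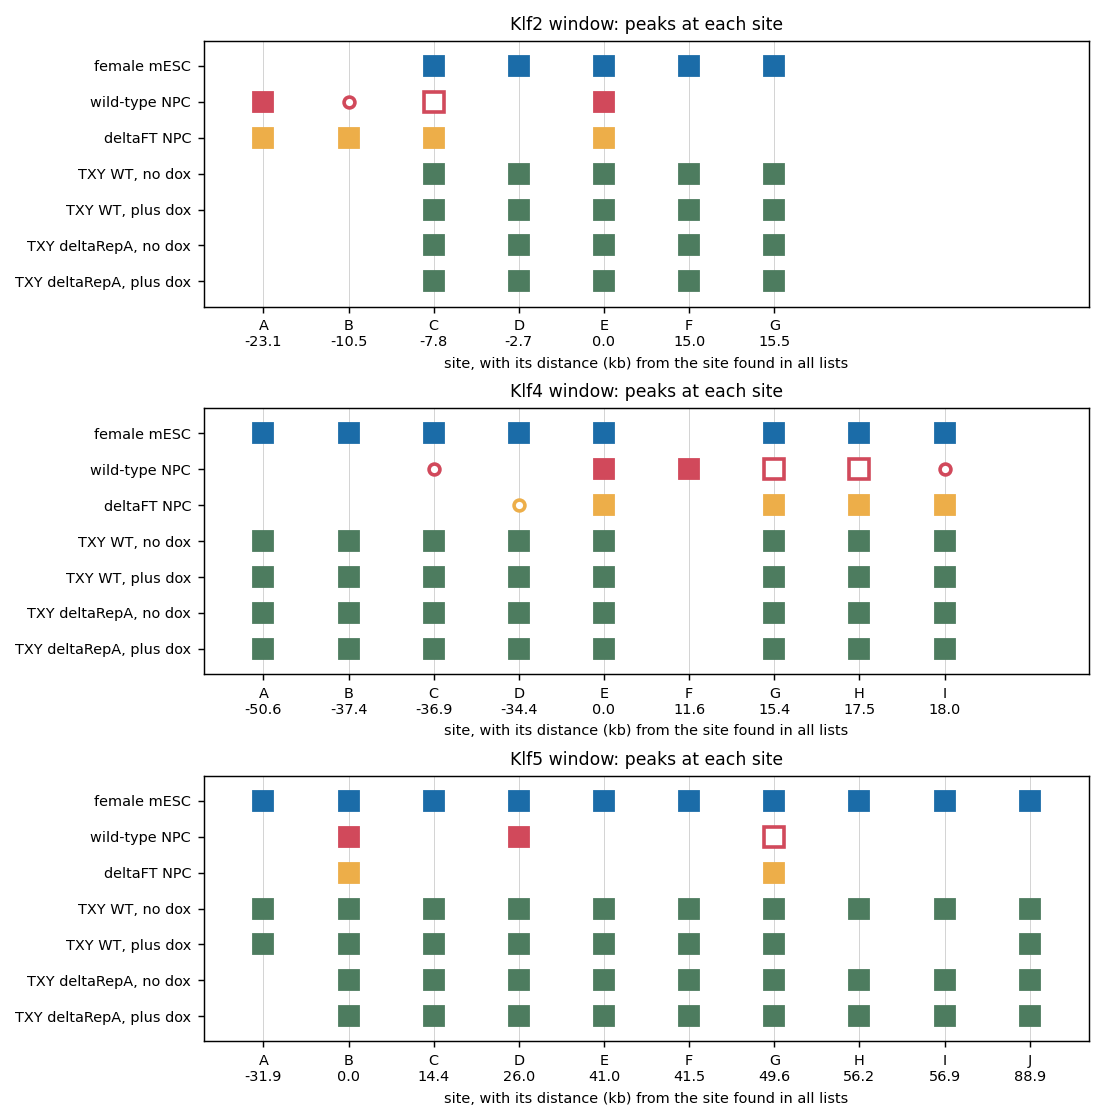
Peaks at the 26 Klf sites, with the 7 samples in rows and the sites in columns, each labelled with its distance in kb from the site open in all lists. Filled squares mark a peak in the reproducible list of a female line or in a TXY list, open squares a peak in both library lists of a line without one in its reproducible list, and small circles a peak in 1 library list. Counting all symbols, mESC has a mark at 23 of the 26 sites, wild-type NPC at 13, deltaFT NPC at 11 and the TXY lists at 21 to 23; filled squares number 6 in wild-type NPC and 10 in deltaFT NPC.

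The stem cells had more reproducible peaks in each window than either neural progenitor line. The reproducible lists of mESC, wild-type NPC and deltaFT NPC held 5, 2 and 4 peaks at Klf2, 9, 2 and 4 at Klf4, and 10, 2 and 2 at Klf5. Summed over the windows, the library lists gave the same order of cell types: 32 and 36 peaks in the 2 mESC libraries, 14 and 22 in wild-type NPC, and 20 and 15 in deltaFT NPC. At Klf2 alone the library lists overlapped, with 6 and 7 peaks in mESC, 3 and 6 in wild-type NPC, and 7 and 5 in deltaFT NPC. Over all autosomes the reproducible list of mESC was the shorter one, with 27538 peaks against 39692 and 36036. The 24 mESC peaks lay at 23 sites, since Klf4-H held 2 peaks there, and all 23 were also in both mESC library lists.

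Of the 24 mESC peaks, 13 were absent from wild-type NPC, meaning that neither its reproducible list nor a library list had a peak there, which is 54.2% (exact Clopper-Pearson 95% interval 32.8% to 74.4%). Among all autosomal mESC peaks the share was 41.1%, inside that interval. By gene, 3 of 5 were absent at Klf2, 3 of 9 at Klf4 and 7 of 10 at Klf5. From deltaFT NPC 14 of the 24 were absent (58.3%, against 40.1% of all autosomal peaks), and from every list of both NPC lines 12 (50%, against 36.9%). All these intervals cover counting error only. The absence of a peak says that a caller did not pass its threshold there, not that the DNA was closed, and no read count is given for such a site.

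The 12 sites without an NPC peak in any list were Klf2-D, Klf2-F and Klf2-G, Klf4-A and Klf4-B, and Klf5-A, Klf5-C, Klf5-E, Klf5-F, Klf5-H, Klf5-I and Klf5-J. Klf4-B (55490207 to 55490734) had 378 reads in mESC, Klf2-D (74839994 to 74840386) 373 and Klf4-A (55476837 to 55477629) 364. Klf2-F and Klf2-G had 138 and 232. RefSeq places Klf4 on the minus strand, so it is transcribed toward lower coordinates. Klf4-A and Klf4-B lie at lower coordinates than Klf4-E, at -50.6 and -37.4 kb. Where the gene stands relative to these 3 sites was not checked. Klf4-C and Klf4-D, at -36.9 and -34.4 kb, had 157 and 262 reads in mESC and a peak in 1 library of 1 NPC line each. At Klf5 the sites without an NPC peak ran from -31.9 to 88.9 kb around Klf5-B and had 66 to 210 reads. The strongest of them, Klf5-E and Klf5-F at 41.0 and 41.5 kb, had 196 and 210 reads.

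At Klf2 the progenitors also had open sites of their own. Klf2-A (74819486 to 74820072, -23.1 kb from Klf2-E) had 565 reads in wild-type NPC and 629 in deltaFT NPC, nearly as many as Klf2-E in wild-type NPC. Klf2-B (74832246 to 74832509) had 118 reads in deltaFT NPC and a peak in 1 wild-type NPC library. Neither site had a peak in a mESC library or a TXY list. The third NPC site without a mESC peak, Klf4-F (55539447 to 55539596), was weak, with 38 reads in wild-type NPC. In all, 2 of 6 wild-type NPC peaks and 2 of 10 deltaFT NPC peaks were absent from mESC, against 52.5% and 46.4% of autosomal peaks. The reproducible lists of the NPC lines had no Klf5 peak outside the mESC sites.

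**Figure D2:**
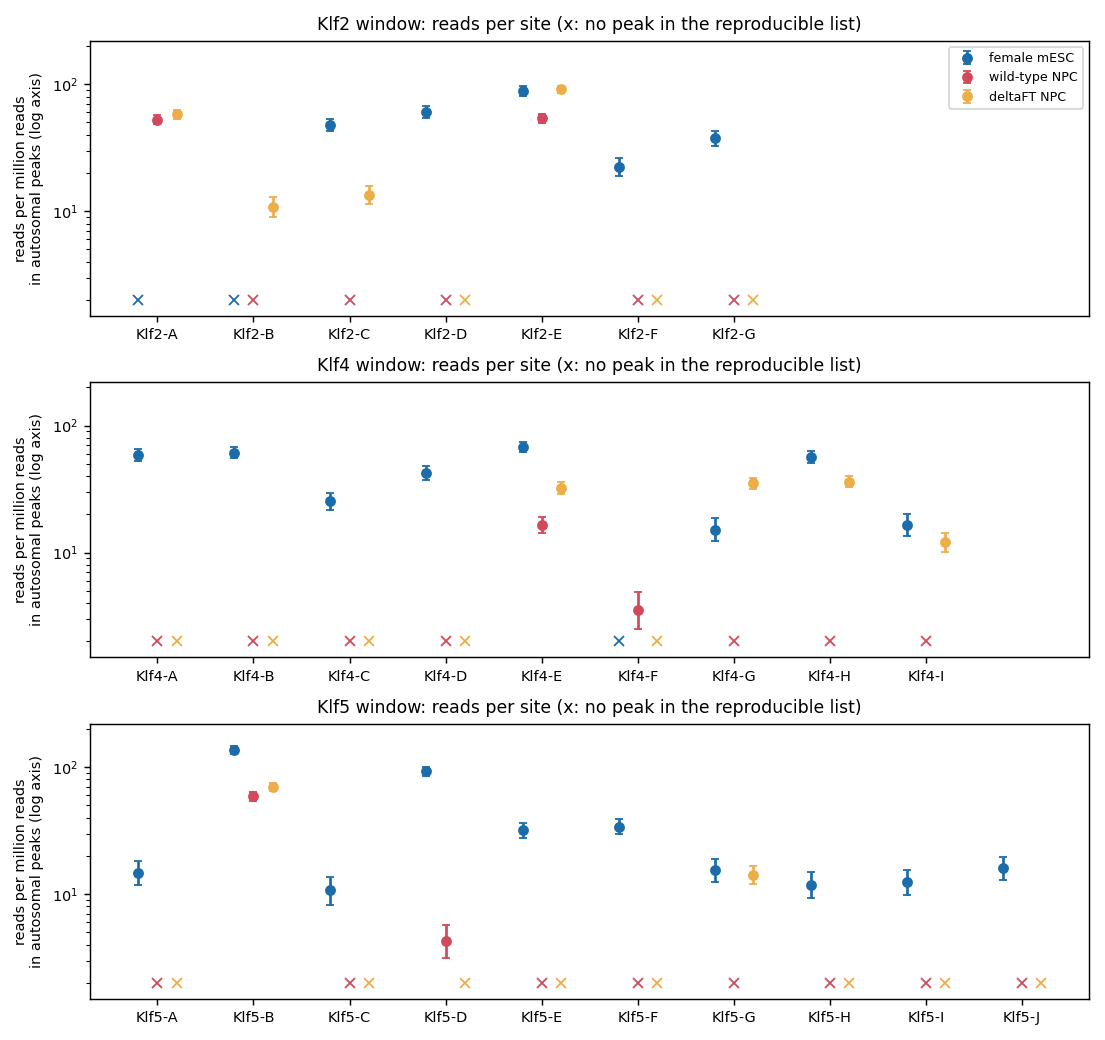
Reads per 1000000 reads in autosomal peaks (log axis) at each Klf site in female mESC, wild-type NPC and deltaFT NPC, with exact Poisson 95% intervals of counting error; crosses mark sites without a peak in the reproducible list. Klf2-A is at 52.7 and 58.0 in the NPC lines with no mESC peak, and Klf5-D is at 92.4 in mESC but 4.29 in wild-type NPC.

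Reads were scaled to reads per 1000000 reads in autosomal peaks of the same list (RPM). Summed over the windows, peaks held 977 RPM in mESC, 190 in wild-type NPC and 373 in deltaFT NPC. By these sums the order of the lines was the same at each gene. At Klf2 the sums were 257 (exact Poisson 95% interval 244 to 270), 106 (100 to 113) and 174 (166 to 182). At Klf4 they were 345 (330 to 359), 20.1 (17.5 to 23.0) and 116 (109 to 122), and at Klf5 376 (361 to 392), 63.1 (58.5 to 68.1) and 83.6 (78.3 to 89.3). The intervals of the lines did not overlap at any of the genes. These sums run over regions called separately in each line, which covered 9166 bp in mESC, 2954 bp in wild-type NPC and 5346 bp in deltaFT NPC. Per bp of peak the values were 0.107, 0.0642 and 0.0698 RPM, also higher in mESC. The median autosomal site open in both lines was lower per bp in NPC too, at log2 -0.47 for wild-type and -0.42 for deltaFT NPC over mESC. Per bp, wild-type NPC stood above deltaFT NPC at Klf2 (0.0900 and 0.0845) and Klf5 (0.0558 and 0.0476). At Klf4 it stood below (0.0315 and 0.0754).

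At the 4 sites with a reproducible peak in both mESC and wild-type NPC, scaled reads were lower in NPC. At Klf5-D (99723621 to 99724434, 26.0 kb from Klf5-B) the value went from 92.4 to 4.29 RPM, 21.6-fold lower (log2 -4.43, 95% interval -4.90 to -4.00), and 3 of 12105 autosomal sites open in both lines stood lower. The NPC peak there held 46 reads and spanned 261 bp against 814 bp in mESC. Per bp of peak the difference was 6.91-fold, with 0.207% of autosomal sites lower still. Klf4-E went from 68.0 to 16.6 RPM, 4.10-fold lower (log2 -2.03, -2.30 to -1.78), with 3.72% of autosomal sites lower still. Klf5-B, which like Klf4-E stayed open in every line, went from 137 to 58.8, 2.33-fold lower. Klf2-E kept more of its reads, with 88.7 and 53.8 (log2 -0.72, -0.89 to -0.55). Thus 3 of 4 sites were at least 2-fold lower, against 19.8% of autosomal sites, and 0 at least 2-fold higher, against 5.90%. The median autosomal site stood at -0.28, and measured from that median 2 of the 4 were at least 2-fold lower.

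**Figure D3:**
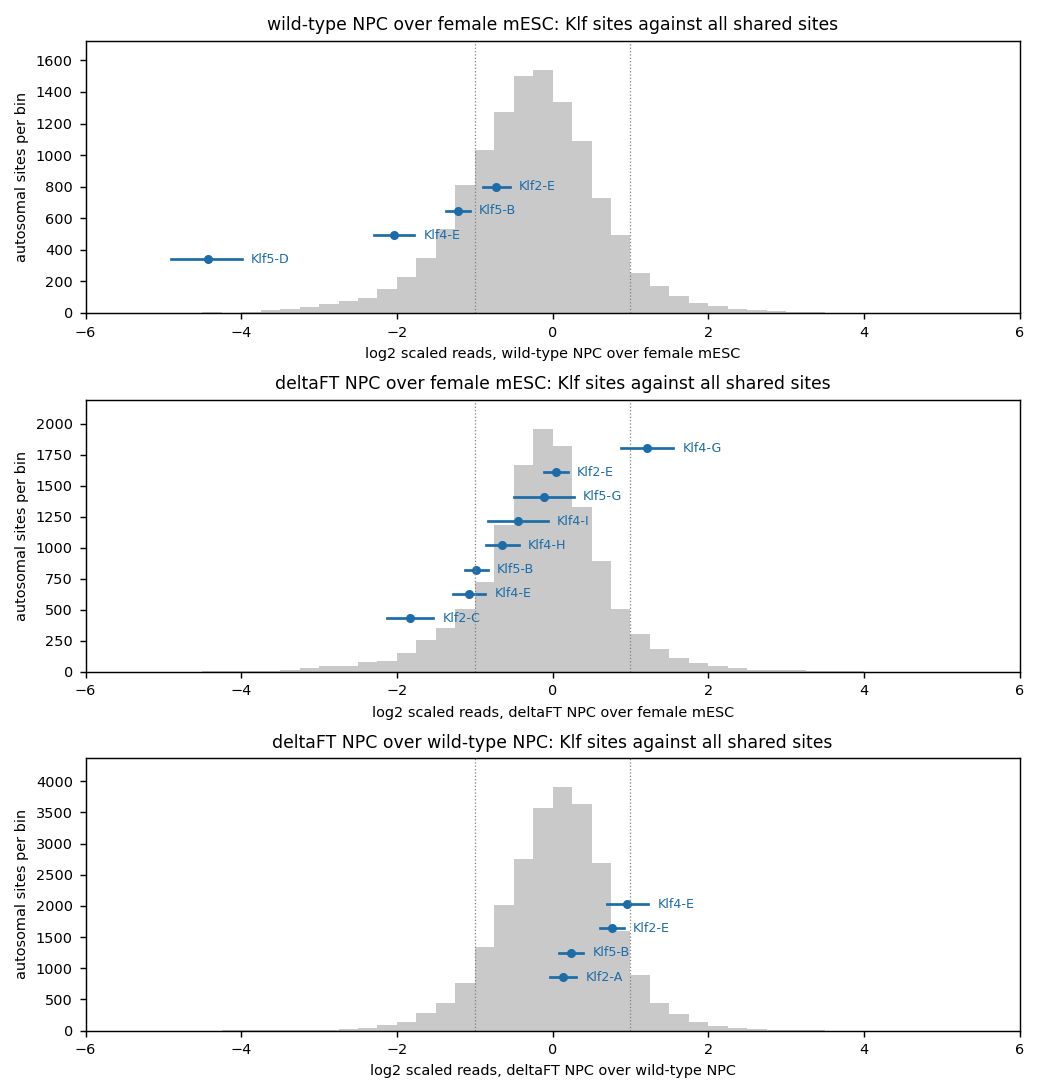
Distribution of the log2 difference in scaled reads over all autosomal sites open in both lines (grey bars), with the Klf sites as points and their 95% counting intervals (heights of points carry no value); dotted lines mark 2-fold. Klf5-D at -4.43 and Klf4-E at -2.03 lie in the lower tail for wild-type NPC over mESC, and no Klf site passes 2-fold between the NPC lines.

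The deltaFT NPC line had more reproducible peaks at Klf2 and Klf4 than the wild-type line, though its sites were not missing from the wild-type libraries. Of its 10 peaks, 6 had no partner in the reproducible list of wild-type NPC, against 27.8% of autosomal deltaFT peaks, but all 10 overlapped a peak in at least 1 wild-type NPC list, so 0 were absent (5.53% of autosomal deltaFT peaks were). Klf2-C, Klf4-G, Klf4-H and Klf5-G had peaks in both wild-type libraries without entering the reproducible list, and Klf2-B and Klf4-I in 1. In each NPC line 10 sites had a peak in both library lists. At Klf4 the library lists held 6 and 8 peaks in wild-type NPC, and 8 and 6 in deltaFT NPC. In the other direction, 2 of 6 wild-type peaks were absent from deltaFT NPC, the weak Klf4-F and Klf5-D with 38 and 46 reads, against 10.6% of autosomal peaks.

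A cluster of sites 15.4 to 18.0 kb from Klf4-E was the main block shared by the reproducible lists of deltaFT NPC and mESC. In wild-type NPC, Klf4-G and Klf4-H had peaks in both libraries and Klf4-I in 1. Klf4-G (55543105 to 55543428) had 94 reads in mESC and 382 in deltaFT NPC, or 15.2 and 35.2 RPM, 2.31-fold higher in deltaFT NPC. The deltaFT peak was also wider, and per bp the log2 difference was 0.24. Klf4-H (55545037 to 55545718) had 56.8 RPM in mESC and 36.2 in deltaFT NPC, and Klf4-I 16.5 and 12.1. Klf2-C (74834764 to 74835399) was 3.55-fold lower in deltaFT NPC, with 47.8 and 13.5 RPM, and Klf4-E 2.11-fold lower. Klf5-B went from 137 to 69.4, log2 -0.98 and just under 2-fold, but 3.31-fold lower per bp of peak. Klf5-G had 15.4 and 14.2 RPM, log2 -0.12, and was 2.57-fold lower per bp. Klf2-E had 88.7 in mESC and 91.3 in deltaFT NPC, log2 0.04 with an interval of -0.11 to 0.19. Of the 8 sites open in both, 2 were at least 2-fold lower, against 12.8% of autosomal sites, and 1 higher, against 6.44%. Per bp of peak, where Klf4-E was 1.91-fold lower, 3 sites (Klf2-C, Klf5-B and Klf5-G) were at least 2-fold lower, against 14.4% of autosomal sites, and 0 higher, against 0.783%.

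Between the NPC lines, the 4 sites open in both differed by less than 2-fold. The log2 difference of deltaFT over wild type was 0.14 at Klf2-A, 0.24 at Klf5-B, 0.76 at Klf2-E and 0.96 at Klf4-E, each measured on 1 line per genotype. No site was called higher, against 7.54% of autosomal sites, or lower, against 7.14%.

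Because the female lines are F1 hybrids, part of the reads could be given to an allele. The files do not say which allele is which strain, and the alleles are named here by their order, first-listed or second-listed. In mESC the first-listed allele had 46.2% (43.0% to 49.4%) of allelic reads at Klf2, below the 49.6% of chromosome 8. It had 52.6% (49.1% to 56.0%) at Klf4, overlapping the 49.9% of chromosome 4, and 52.0% (47.8% to 56.1%) at Klf5, just above the 47.3% of chromosome 14. Of 21 mESC peaks with at least 10 allelic reads, 5 had an interval that left out 50%, against 28.3% of autosomal peaks by the same rule (11.4% toward the first-listed and 16.9% toward the second-listed allele). Klf4-A leaned to the first-listed allele with 65.4% (58.9% to 71.5%) of 234 reads, and Klf5-C did so on 10 reads. Klf2-C, Klf2-D and Klf5-H leaned to the second-listed allele, with 40.5%, 43.9% and 32.7% first-listed. Klf4-D and Klf5-F, with 262 and 210 reads, had 1 and 0 allelic reads.

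**Figure D4:**
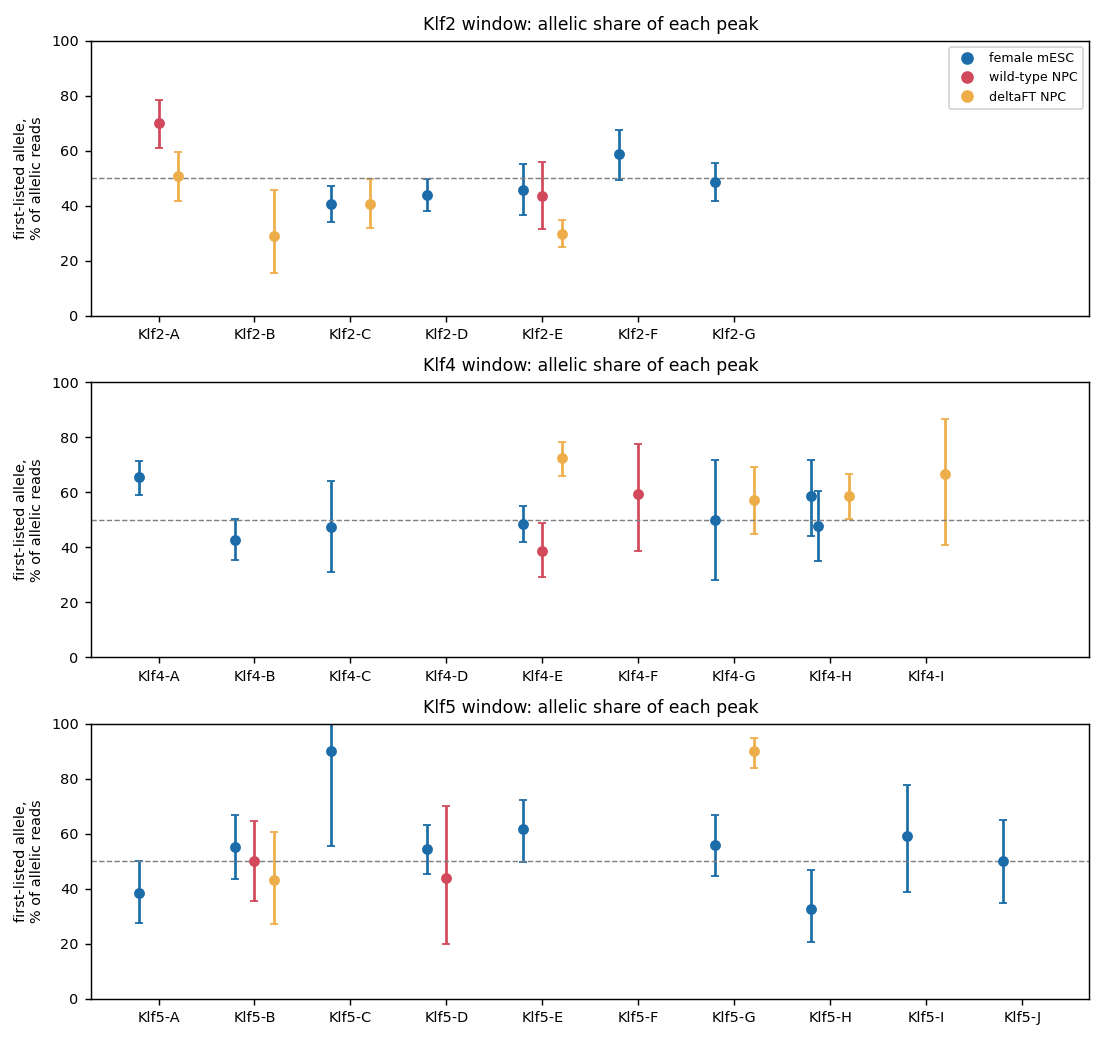
First-listed allele as a percentage of allelic reads for each reproducible Klf peak with at least 10 allelic reads, with exact Clopper-Pearson 95% intervals; the dashed line marks 50%, and Klf4-H has 2 mESC peaks. In deltaFT NPC the points for Klf2-E (29.9%), Klf4-E (72.5%) and Klf5-G (90.2%) lie away from the line with their whole intervals.

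In the NPC lines single peaks leaned to either allele. In wild-type NPC, 2 of 6 peaks were called, against 32.2% of autosomal peaks (17.3% toward the first-listed and 15% toward the second-listed allele): Klf2-A at 70.3% first-listed (60.9% to 78.6%) and Klf4-E at 38.6% (29.1% to 48.8%). In deltaFT NPC, 6 of 10 were called, against 30.4% (12.8% and 17.6%). Klf2-B, Klf2-C and Klf2-E leaned to the second-listed allele, with 28.9%, 40.6% and 29.9% first-listed, and Klf4-E, Klf4-H and Klf5-G to the first-listed one, with 72.5%, 58.6% and 90.2%. Pooled over the peaks of a window, the first-listed share in deltaFT NPC was 36.2% (32.5% to 40.1%) at Klf2, where all peaks of chromosome 8 gave 44.7%. It was 65.2% (60.5% to 69.6%) at Klf4, against 52.3% for chromosome 4, and 80% (73.2% to 85.7%) at Klf5, against 49.4% for chromosome 14, where Klf5-G gave 133 of the 170 reads. Measured against the pooled share of their chromosome instead of 50%, 3 of the 10 deltaFT peaks (Klf2-E, Klf4-E and Klf5-G) and 1 of the 6 wild-type peaks (Klf2-A) were called, against 30.2% and 31% of autosomal peaks by that rule. In mESC it was 5 of 21, against 26.8%.

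At Klf4-E the NPC lines differed in their allelic share. Its first-listed share in deltaFT NPC was 72.5% (65.8% to 78.4%), an interval above both the 48.5% (41.8% to 55.1%) of mESC and the 38.6% of wild-type NPC. The wild-type NPC interval left out 50% but not the 47.0% of chromosome 4. At Klf2-E deltaFT NPC had 29.9% (25.1% to 35.0%), below the 45.8% (36.6% to 55.2%) of mESC and overlapping the 43.5% (31.6% to 56.0%) of wild-type NPC. Klf5-G (99747334 to 99748070) had 56.0% (44.7% to 66.8%) in mESC and 90.2% (83.9% to 94.7%) in deltaFT NPC, and Klf2-A went from 70.3% in wild-type to 50.8% (41.9% to 59.6%) in deltaFT NPC. Against mESC, deltaFT NPC thus lay above at 2 of 7 shared sites and below at 1, with 6.03% and 5.24% of autosomal sites doing so. Against wild-type NPC it lay above at 1 of 4 and below at 1, with 3.89% and 6.42%. Wild-type NPC overlapped mESC at all 4 shared sites (7.45% of autosomal sites lay above and 4.26% below).

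The female stem cell peaks were found in the male stem cells about as often as other autosomal mESC peaks. Of the 24 mESC peaks, 24, 22, 23 and 23 were found in the TXY lists for wild type without and with dox and deltaRepA without and with dox. All 4 lists held 21 (87.5%, 67.6% to 97.3%), against 89.9% of autosomal mESC peaks. The exceptions were the weak sites Klf5-A, found in both wild-type lists and neither deltaRepA list, and Klf5-H and Klf5-I. The last were each without an overlapping peak in wild type with dox. A weak peak of that list, with a fold enrichment of 2.55, lay near Klf5-I without overlapping it. Of the 12 mESC peaks without an NPC peak, 9 were in all 4 TXY lists (75%, 42.8% to 94.5%), against 79.4% of such autosomal peaks. All 4 held 4 of 6 wild-type NPC peaks and 8 of 10 deltaFT NPC peaks, against 47.3% and 53.3% of autosomal peaks. Some neighbouring sites, such as Klf2-F with Klf2-G and Klf5-E with Klf5-F, met the same TXY peak. In the 4 lists, in the order above, 19, 17, 18 and 18 TXY peaks overlapped a female site. The matches are therefore not all independent, which the intervals leave out.

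Klf5-B was the strongest of the female sites in each TXY list. Its fold enrichment over local background, the authors' value, was 12.7 in wild type without dox, 13.5 with dox, 12.4 in deltaRepA without dox and 12.2 with dox, and by −log10 p it ranked above 99.8% to 99.9% of the peaks of each list. Klf4-E had 11.3, 9.48, 8.29 and 10.1, and Klf2-E had 6.61, 8.55, 7.83 and 7.59. Klf5-D, which was weak in wild-type NPC, had 7.94, 9.90, 6.40 and 8.04. Klf4-A had 7.95, 8.06, 8.14 and 8.02 and Klf5-J (99786848 to 99787133) 7.45, 7.55, 8.28 and 7.81. A fold enrichment describes a peak within its own list, so these values are given side by side without a comparison of conditions.

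Klf peaks were found again with dox at shares close to those of other autosomal peaks. Of 43 peaks in wild-type TXY cells without dox, 31 (72.1%, 56.3% to 84.7%) were also found with dox, against 62.1% of autosomal peaks. In deltaRepA cells 31 of 38 were found (81.6%, 65.7% to 92.3%), against 68.7%. With peaks of a −log10 q of at least 5, the number was 21 of 22 in both genotypes, against 92.6% and 97.5%. Between the genotypes without dox, 32 of the 43 wild-type peaks were found in deltaRepA, against 60.4%, and with the same −log10 q minimum 22 of 22, against 89.6%. Per window the 4 lists, in the order above, held 8, 6, 6 and 5 peaks at Klf2, 12, 11, 10 and 9 at Klf4, and 23, 20, 22 and 25 at Klf5.

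The TXY lists also held peaks beyond the female sites. The highest fold enrichments of such peaks were 4.37 and 5.83 in wild type without and with dox. In deltaRepA they were 5.87 and 6.80. The strongest female sites stood higher in each list, but some female sites stood lower. All peaks of the TXY lists joined into 56 sites, of which 24 were in all 4 lists and 13 in 1 list. Outside the female sites lay 37, of which 7 were in all 4 lists, 6 of them at Klf5 and 1 at Klf4. Of these 7, 3 were in both mESC libraries and 2 in 1 mESC library. A peak in NPC libraries was found at 2, both at Klf5 (99724959 to 99725438 and 99753186 to 99753638), with 4 and 3 of the 4 NPC libraries. The Klf4 site (55488235 to 55488693) had fold enrichments of 3.56, 5.12, 4.36 and 4.04 and no peak in an NPC library.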

How the data were processed

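ATAC-seq peak lists of 7 samples, 1 per group, were analysed. The sample groups follow the titles: the source label of the mESC sample names neural progenitors, and the descriptions of both plus-dox samples name a no-dox file. Per the submitters' processing notes, cutadapt, Bowtie2 and MACS2 were used with mm9. Not given in the sources used here are versions, settings, duplicate removal and the shift to Tn5 insertion sites. The files of a female line are 1 list of peaks under an irreproducible discovery rate (IDR) of 0.05 and 1 list per library, each made by the authors. The reproducible lists deposited by the authors hold raw read counts per peak and per allele. It is not stated whether the counts come from a single library of the line or from both. The library and TXY lists hold the authors' fold enrichment (a ratio), −log10 p and −log10 q values and score, per the file headers or the narrowPeak column order; these served to rank and filter peaks within a list.

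Peaks were matched by an overlap of at least 1 bp. Reads were scaled to 1000000 reads in autosomal peaks of the same list. Shares carry exact Clopper-Pearson and read sums exact Poisson 95% intervals, for counting error only: without molecular identifiers, reads are not independent molecules. A fold of 2, or an interval leaving out 50% over at least 10 allelic reads, was called, and the same rule over the 19 autosomes is the background. No p-value was computed between groups. Sites were named where they had most reads, were present in 1 cell type, or ranked highest in TXY lists. The windows, gene lists and rules were chosen with earlier results of these data known. Stem cell, progenitor and other marker genes, and peaks of other genes, were not analysed here, as gene positions in mm9 were not used. The steps were tested on simulated data. Tools were python 3.11.15, numpy 2.4.6, pandas 2.3.3, scipy 1.17.1 and matplotlib 3.10.9. Alternatives covered overlap, read and allelic minimums, scaling, single libraries, −log10 q and peak width; scaling by the median, reads per bp, the definition by both libraries and absence from both NPC lines were chosen after seeing the data.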

Additional observations from a re-analysis of the deposited data

Results flagged for a closer look

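With dox, the number of Klf5 peaks moved in opposite directions in the TXY genotypes. It changed by -3 in wild type, from 23 to 20 peaks, and by 3 in deltaRepA, from 22 to 25. Over the 3 windows it changed by -6 in wild type and by 1 in deltaRepA, while Klf2 and Klf4 each had fewer peaks with dox in both. With a −log10 q of at least 5 the opposite direction was lost: Klf5 had 10 and 7 peaks in wild type and 11 and 9 in deltaRepA, and the 3 windows 22 and 17, and 22 and 19. With 1 list per condition, the difference was not tested. Autosomal peaks changed by -9.76% in wild type and 10.7% in deltaRepA.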

How the results depend on the processing

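Of 65 values recomputed under another setting, 46 stayed within the spread or count range of the reported value and 19 moved. Judged by the reproducible list alone, 83.3% of mESC peaks were absent from wild-type NPC (53.7% of autosomal peaks) and 60% of deltaFT peaks were (27.8%), since several sites had peaks in the library lists. With at least 50 reads, 0 of 4 wild-type NPC peaks were absent from deltaFT NPC (8.73% of autosomal peaks). Without that minimum it was 2 of 6 (10.6%), so the share moved from above the autosomal one to below it. Scaled by the median site, 1 site was at least 2-fold lower in deltaFT NPC than mESC, and the log2 ratio of the summed reads, which run over different called lengths, was -2.09 in place of -2.36 for wild-type NPC over mESC and -1.28 in place of -1.39 for deltaFT NPC. Per bp of peak, 0 sites were at least 2-fold higher and 3 lower in deltaFT NPC than mESC. Against the chromosome's share, 1 wild-type and 3 deltaFT NPC peaks were allelic. By library, the windows held 14 and 22 peaks in wild-type NPC and 20 in the first deltaFT library; 10 sites were in both wild-type NPC library lists. With a −log10 q of at least 5, the TXY lists held 22, 17, 22 and 19 peaks and 95.5% were kept with dox in wild type and 95.5% in deltaRepA. The cause was not tested. No paired analysis was possible because each group is 1 sample and the labels carry no replicate numbers. With 16 NPC peaks, differences of a few sites cannot be resolved.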
